A study of Rattus norvegicus with 7 samples.

Results

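The Hox genes of the rat kidney were described from single-nucleus RNA sequencing. Members were all genes in the deposited gene lists whose symbol is Hox followed by a cluster letter (a, b, c or d) and a paralog number. This gave 43 of 25399 gene identifiers, with 37 different symbols: 15 identifiers in HoxA, 10 in HoxB, 9 in HoxC and 9 in HoxD. The 7 libraries came from archived kidneys of HSRA rats, a line in which some animals are born with a solitary kidney. There were 3 libraries titled 1 Kidney (HSRA-S) and 4 titled 2 Kidney (HSRA-C). All came from a central piece of kidney that held both cortex and medulla, taken at 4 weeks of age. All groups share the HSRA background, so no unrelated strain stands beside them. The labels give no sex and no treatment. Values are UMIs (unique molecular identifiers, one per captured RNA molecule), and a level is given as CPM, the UMIs of a gene scaled to 1000000 UMIs of the same class of nuclei in the same library.

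Hox genes encode homeodomain transcription factors. They lie in 4 clusters on different chromosomes, and within a cluster the order of the genes follows the order in which they are used from the head to the tail of the embryo, from low to high paralog number. Adult cells keep part of the combination that their precursors had, so the set of active Hox genes can mark where a cell came from. In the kidney the nephron derives from metanephric mesenchyme, the collecting duct from the ureteric bud, and the stroma and endothelium from further lineages. Hox genes of paralog group 11 are jointly required for the mouse kidney to form, and the Hoxb7 promoter is a common driver of transgenes in the ureteric bud and collecting duct.

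Upstream sequence is shown for 6 members whose levels differed between kidney cell types: Hoxc4, high in podocytes and stroma, Hoxd3 and Hoxd4, high in principal cells, and Hoxd9, Hoxd10 and Hoxd11, which differed along the tubule. Each is the 250 bases before the RefSeq gene start in build GRCr8, 5′ to 3′ on the + strand, with every CpG dinucleotide in capitals.
Hoxc4: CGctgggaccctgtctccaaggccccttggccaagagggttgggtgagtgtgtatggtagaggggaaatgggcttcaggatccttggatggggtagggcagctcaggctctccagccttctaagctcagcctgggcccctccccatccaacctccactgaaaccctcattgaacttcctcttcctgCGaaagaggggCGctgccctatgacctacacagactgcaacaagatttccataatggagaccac
Hoxd3: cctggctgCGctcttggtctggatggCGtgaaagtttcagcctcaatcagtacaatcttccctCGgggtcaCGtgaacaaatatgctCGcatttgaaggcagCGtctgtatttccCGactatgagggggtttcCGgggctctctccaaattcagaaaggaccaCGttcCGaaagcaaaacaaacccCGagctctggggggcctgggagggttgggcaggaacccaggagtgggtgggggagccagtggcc
Hoxd4: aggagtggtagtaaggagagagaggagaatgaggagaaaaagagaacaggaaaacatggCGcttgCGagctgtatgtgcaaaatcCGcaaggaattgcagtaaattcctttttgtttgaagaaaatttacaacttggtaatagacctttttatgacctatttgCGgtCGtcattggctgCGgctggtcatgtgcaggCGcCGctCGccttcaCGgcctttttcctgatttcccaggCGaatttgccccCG
Hoxd9: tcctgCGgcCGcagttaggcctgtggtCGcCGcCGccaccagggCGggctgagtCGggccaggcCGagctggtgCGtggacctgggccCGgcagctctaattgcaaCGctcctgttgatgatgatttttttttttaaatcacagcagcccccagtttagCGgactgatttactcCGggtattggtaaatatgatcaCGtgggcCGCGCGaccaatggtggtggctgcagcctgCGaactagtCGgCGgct
Hoxd10: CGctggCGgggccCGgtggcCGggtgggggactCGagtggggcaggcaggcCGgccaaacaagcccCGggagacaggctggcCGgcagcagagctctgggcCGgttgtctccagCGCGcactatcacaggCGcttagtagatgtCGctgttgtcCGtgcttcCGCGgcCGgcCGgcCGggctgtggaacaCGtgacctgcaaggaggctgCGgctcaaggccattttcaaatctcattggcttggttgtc
Hoxd11: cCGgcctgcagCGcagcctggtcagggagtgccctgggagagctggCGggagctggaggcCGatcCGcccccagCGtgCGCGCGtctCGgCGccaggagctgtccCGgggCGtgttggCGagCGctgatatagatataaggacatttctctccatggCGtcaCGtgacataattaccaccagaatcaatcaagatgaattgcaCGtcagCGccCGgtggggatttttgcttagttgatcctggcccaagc
The Hoxc4 window, at chr7:136048809-136049058, held 3 CpG, and 71.4% of all 33469 RefSeq promoter windows held at least as many. The 5 HoxD windows held more: Hoxd3 at chr3:80045876-80046125 had 11 and Hoxd4 at chr3:80021636-80021885 had 12. Hoxd9 at chr3:80007756-80008005 had 20, Hoxd10 at chr3:80001697-80001946 had 21, and Hoxd11 at chr3:79992144-79992393 had 20. At least 20 CpG were found in 16.7% of all windows and at least 12 in 31.5%; the median was 5. Both strands of each window were searched for TGATTNAT (a Pbx-Hox site), TGACAG (a Meis site) and TAATTA (a homeodomain core), which occurred in 2.82%, 15.8% and 4.86% of all windows. Of the 6 windows shown, Hoxd11 alone held a match: TGATTNAT on the - strand with its first base 67 bases before the start, and TAATTA 81 bases before it. Windows were at hand for 19 of the 37 member symbols. Coordinates here are those of RefSeq only; for counting, no label at hand names a build.

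The files held 37048 barcodes, a mean of 5293 per library, which is the number of cells the labels state. After filters 31227 nuclei with 123785588 UMIs remained, 2263 to 5952 nuclei and 5581726 to 27069632 UMIs per library. Pairs of libraries shared 3 to 14 barcodes, at most 0.236% of the smaller library. Clustering without Hox genes gave 22 clusters, named from kidney marker genes. The nephron (podocyte, parietal epithelium, proximal tubule, thin limb, thick ascending limb, distal convoluted tubule) held 15644 nuclei, the collecting duct (principal and intercalated cells) 3456, the stroma (fibroblast and mural cells) 1471 and the endothelium 2707. The connecting tubule (1116 nuclei) was kept apart, because it lies between nephron and collecting duct. Unnamed clusters held 5752 nuclei. The largest, with 3161 nuclei and a median of 9105 UMIs, held 40.9% of all retained UMIs, where the nephron held 36.3%. It had 35345 of the 82655 HoxB UMIs, and the proximal tubule marker Slc34a1 was among its leading genes. Levels and folds of the compartments and named classes leave this cluster out, except where it was added to proximal tubule as an alternative. Another unnamed cluster, with 2013 nuclei, haemoglobin genes in the lead and a median of 668 UMIs, serves below as a reference for RNA that is free in the suspension. The library names of 2-kidney replicates 3 and 4 begin P1117B, and those of the other 5 begin P1117. These 2 had the most nuclei and UMIs and stood apart for many genes, so calls that ended without them are given both ways. P-values measure the spread between libraries, each of which is 1 animal.

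Hox RNA in the 4-week kidney was mostly HoxB RNA. The members together had 115111 UMIs, 0.093% of all UMIs, of which HoxB had 71.8%, HoxC 14.9%, HoxD 13.1% and HoxA 0.229%. Hoxb4, best known for its effect on blood stem cells, had 48639 UMIs or 42.3% of the Hox total. The next were Hoxb3 with 10133, Hoxb6 with 6998, Hoxb5 with 5901 and Hoxd4 with 5600 UMIs. A 3′ UMI tally is not a level per length, so no order of activity between genes is read from these totals. A Hox UMI was found in 77.2% of retained nuclei, a HoxB UMI in 67.1%, a HoxC UMI in 25.7%, a HoxD UMI in 26.7% and a HoxA UMI in 0.817%.

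The high-numbered ends of the clusters were nearly silent, as was HoxA as a whole. At the low-numbered ends Hoxb1 had 52 UMIs and Hoxd1 had 7, while Hoxc4 had 2003. Of the 43 identifiers, 22 reached 100 UMIs, 21 from HoxB, HoxC and HoxD and 1 from HoxA, Hoxa3, with 170 UMIs. The paralog group 11 genes differed: Hoxc11 had 1037 UMIs, Hoxd11 368, and the 3 Hoxa11 identifiers 0, 30 and 1. No UMI was counted for 13 identifiers, among them Hoxb13, Hoxc12, Hoxd12 and Hoxd13 at the tail ends of their clusters. A count of 0 in 31227 nuclei allows up to 0.00961% of nuclei with a UMI, or 0.0242 CPM, for counting error only. Several HoxA symbols stand for more than 1 identifier, so reads of those genes may be split between copies. In RefSeq, Hoxc4 and Hoxc5 lie within the span of Hoxc6 and Hoxa4 within that of Hoxa3. How reads in such overlaps were assigned is not given, and single values of Hoxc4, Hoxc5 and Hoxc6 are uncertain for that reason.

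The 4 compartments differed in which Hox cluster they used. The summed HoxB level was 1236 ± 266 CPM (SD, n = 7 libraries) in collecting duct, 605.7 ± 144 in nephron, 548.3 ± 73.9 in endothelium and 485.8 ± 105 in stroma. The summed HoxC level ran in another order, with 510.1 ± 97.1 CPM in stroma, 153.5 ± 43.5 in nephron, 52 ± 22.1 in collecting duct and 46.5 ± 14.5 in endothelium. The summed HoxD level was 301.5 ± 63.4 CPM in collecting duct, 147.5 ± 39.0 in stroma, 94.1 ± 13 in nephron and 73.5 ± 14.9 in endothelium. Stroma was thus the compartment with the most HoxC and collecting duct the one with the most HoxB and HoxD. The HoxB sums of stroma and endothelium lay within 1 SD of each other, as did the HoxC sums of collecting duct and endothelium.

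The low-UMI haemoglobin cluster serves here as the reference for free RNA. It had 492.1 ± 145 CPM of HoxB (309.4 to 746.2 over libraries), 120 ± 26.9 of HoxC (64.2 to 140.7) and 116.7 ± 38.3 of HoxD (65.5 to 184.3). Myeloid nuclei, a blood-derived class, had 433 ± 97.3, 89.2 ± 48.4 and 91.8 ± 29.0. The mean HoxB sums of nephron, stroma and endothelium lay within the haemoglobin cluster's range, as did the HoxD sums of nephron, stroma and endothelium. The HoxC sums of collecting duct and endothelium lay below it. The nephron mean joins segments whose HoxB sums, given later, lay below, within and above the haemoglobin cluster's HoxB range. How much of the sums within or below the range was free RNA was not tested. HoxC in stroma, HoxB and HoxD in collecting duct and, by less, HoxC in nephron (153.5 CPM) lay above the range.

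**Figure D1:**
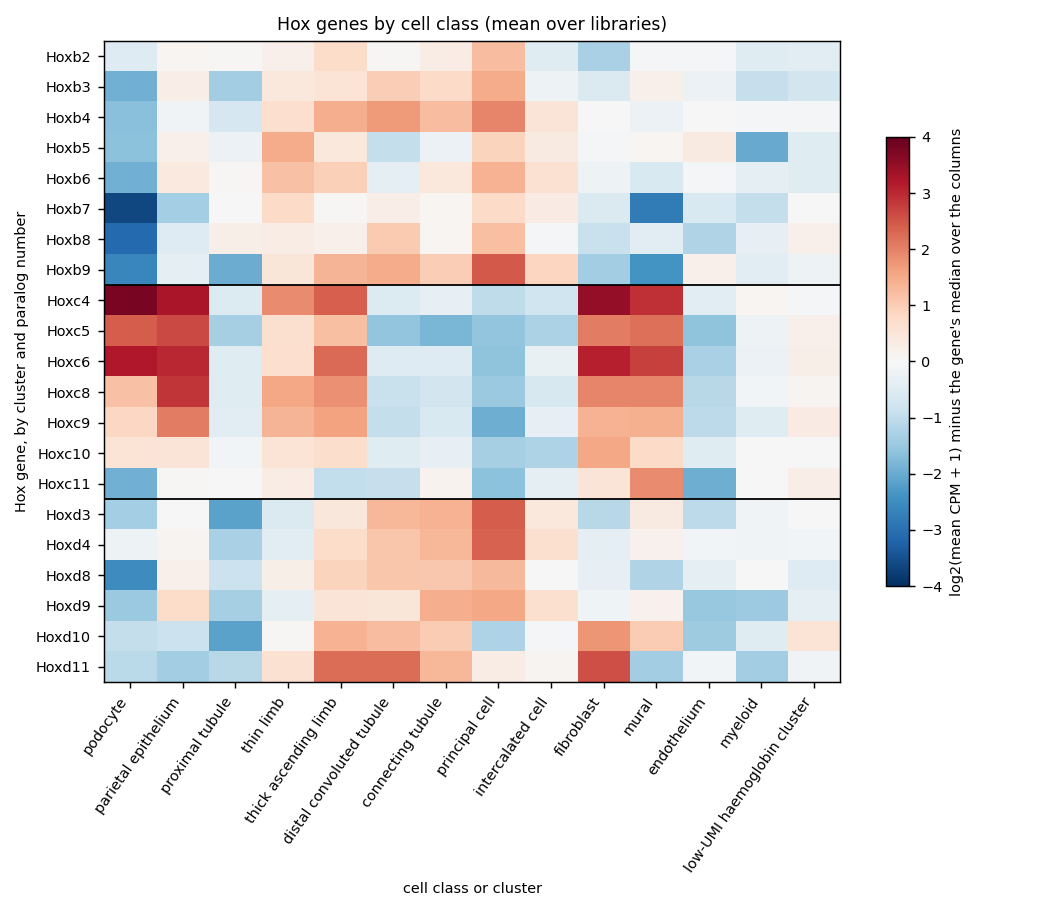
Heat map of 21 Hox genes (rows) in 14 named classes or clusters of nuclei (columns); colour is log2(mean CPM + 1) minus the gene's own median over the columns, so red is high and blue low for that gene. HoxC rows are high in podocytes and stroma, and low-numbered HoxD rows are high in principal cells.

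**Figure D2:**
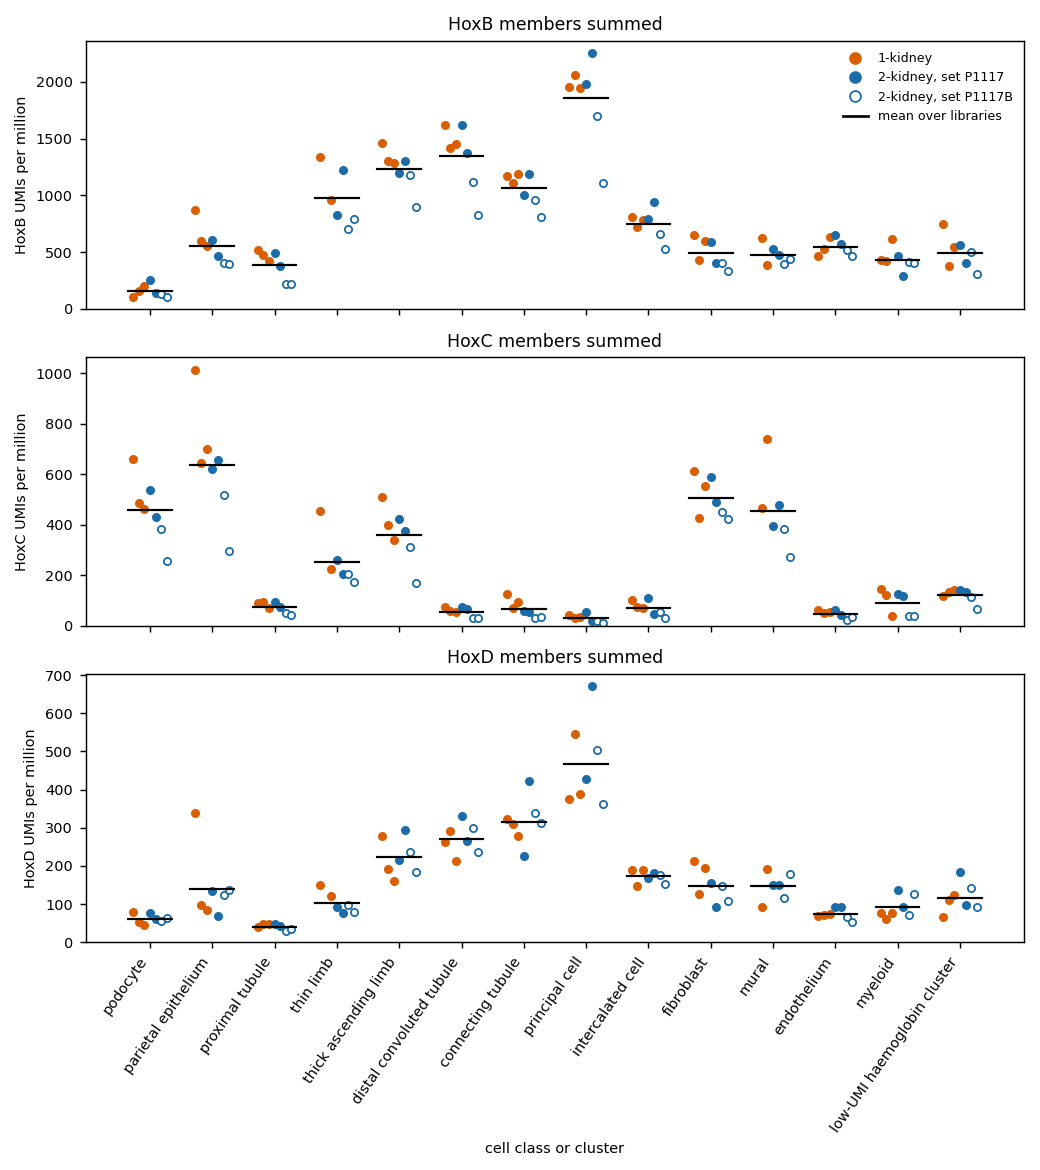
Summed CPM of the HoxB, HoxC and HoxD genes for each library and class; each point is 1 library (orange 1-kidney, blue 2-kidney, hollow for P1117B) and the bar is the mean. HoxB is highest in principal cells with a mean of 1859 CPM, and HoxC in podocytes has a mean of 459.7 CPM against 73.1 in proximal tubule.

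Collecting duct nuclei had more HoxB and HoxD and less HoxC RNA than nephron nuclei. Of 19 Hox genes tested, 10 were higher and 7 lower in collecting duct (edgeR quasi-likelihood test with library as a block, adjusted p under 0.05); over all 10772 genes tested, 24.9% were called higher and 27.7% lower. Hoxd3, Hoxd4, Hoxd8 and Hoxd9 were higher, with Hoxb3, Hoxb4, Hoxb5, Hoxb6, Hoxb7 and Hoxb9. All 6 HoxC genes tested were lower, with Hoxd10. The median log2 fold was 0.80 for HoxB, -1.88 for HoxC and 1.64 for HoxD, beside -0.01 for all genes.

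Hoxd4 ran from 82.2 to 188.5 CPM in collecting duct, with a median of 134.3, and from 27.4 to 38.4 in nephron, with a median of 30.1. The 2 ranges did not overlap, and the fitted difference was 3.80-fold (log2 1.93, edgeR adjusted p = 7.4e-10). Hoxd3, its neighbour in the HoxD cluster, had 50.4 to 111.6 CPM with a median of 74.2 in collecting duct, against 12 to 18.9 with a median of 14 in nephron, a 4.71-fold difference (log2 2.24, SE 0.14). Hoxd9 had 34.5 to 108.6 CPM (median 61.1) against 10.8 to 27.9 (median 20.7), 3.11-fold. For each of these HoxD genes every collecting duct library stood above every nephron library.

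Hoxb9, the highest-numbered HoxB gene detected, was 3.85-fold higher, with 59.2 to 105.6 CPM (median 66.3) in collecting duct and 14.3 to 24.5 (median 16.9) in nephron. Hoxb3 was 2.30-fold higher, at 84.8 to 225.9 CPM (median 141.6) against 50.2 to 77.7 (median 65.3). Hoxb4 reached 378.4 to 956.1 CPM (median 766.2) against 195.9 to 470.1 (median 373.5). Its ranges overlapped across libraries, but within each of the 7 libraries collecting duct was higher (1.97-fold, edgeR adjusted p = 2.27e-07). Hoxb6 had 73.3 to 131 CPM (median 93.4) against 41.4 to 73.8 (median 54.5), and Hoxb5 had 46.7 to 123.8 (median 92.4) against 21 to 65.9 (median 55.4). These 2 were 1.77-fold and 1.72-fold higher, again in 7 of 7 libraries.

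Hoxb7 showed a small difference between compartments. It had 26.6 to 63.6 CPM (median 33.8) in collecting duct and 17.6 to 42.9 (median 25.7) in nephron, 1.46-fold higher (edgeR adjusted p = 0.00294). Hoxb8 had 27.1 to 67 CPM (median 44.2) against 18.8 to 44.2 (median 39.2) and was not called (log2 0.35, SE 0.14, edgeR adjusted p = 0.0508). Both genes thus gave overlapping ranges in the 2 compartments.

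HoxC genes went the other way in collecting duct. Hoxc6 had 3.93 to 13.2 CPM (median 9.86) in collecting duct and 19.5 to 47 (median 30.7) in nephron, 3.99-fold lower with no overlap (edgeR adjusted p = 1.18e-08). Hoxc8 had 3.49 to 26.5 CPM (median 12.1) against 18.9 to 50.1 (median 35.3), and Hoxc9 had 8.29 to 29.1 (median 19.7) against 18.3 to 59.2 (median 41.5). They were 3.11-fold and 2.38-fold lower in 7 of 7 libraries, although their ranges overlapped. Hoxc4 (log2 -2.63), Hoxc5 (log2 -2.27) and Hoxc10 (log2 -1.77) were lower without overlap. Hoxd10 was lower by less than its own spread (log2 -0.47, edgeR adjusted p = 0.0408) and in 5 of 7 libraries. It was called in 3 of the 7 fits that each left out 1 library, and lost the call without any one of the 2-kidney libraries (edgeR adjusted p = 0.0826 to 0.14). It had edgeR adjusted p = 0.237 without the 2 P1117B libraries.

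The nephron side of this comparison is mostly proximal tubule, which made 64.7% of its UMIs. Distal segments of the nephron had HoxB levels like those of collecting duct: the HoxB sum was 1347 ± 285 CPM in distal convoluted tubule, 1234 ± 173 in thick ascending limb, 1061 in connecting tubule and 389.5 ± 123 in proximal tubule. The HoxD sum was 271 CPM in distal convoluted tubule, 222.8 in thick ascending limb, 315.9 in connecting tubule and 41.2 in proximal tubule. No test of collecting duct against the distal segments was made. Under the first rule for naming clusters, where no cluster was named proximal tubule, Hoxb4 (log2 0.10, edgeR adjusted p = 0.335) and Hoxd8 (log2 0.10, edgeR adjusted p = 0.758) were no longer called.

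Within the collecting duct, principal cells, which reabsorb water and sodium, had more HoxB and HoxD RNA than the acid-base transporting intercalated cells. All 10 Hox genes that could be tested, each of HoxB or HoxD, were higher in principal cells, where 25.1% of all genes tested were (49.6% were called in either direction). No HoxC gene could be tested. HoxC went the other way, with 102 of 3.83e+06 UMIs in principal and 276 of 4.55e+06 UMIs in intercalated cells. Both shares were below that of the haemoglobin cluster, with 238 of 1.87e+06 UMIs. Of the 276, 236 lay in the intercalated cluster with Slc4a1. Its Slc34a1 level was 167.7 per 10000 UMIs, beside 38.3 in principal cells and 45.2 in the intercalated cluster with Slc26a4. The HoxC difference was not tested. Hoxd3 had 86.8 to 190.9 CPM (median 126.2) in principal and 26.4 to 41.4 (median 29.6) in intercalated cells, 4.21-fold. Hoxd4 had 113.6 to 306.8 CPM (median 209.2) against 49.7 to 94.4 (median 57.7), 3.56-fold. Hoxb3 followed with 3.41-fold, Hoxb9 with 3.03-fold and Hoxb4 with 2.78-fold. Hoxb4 reached 521.4 to 1349 CPM (median 1293) in principal cells and 258.8 to 553.2 (median 425.9) in intercalated cells; the lowest principal value, in 2-kidney replicate 4, lay within the intercalated range. Hoxb8 (2.63-fold) was higher in 7 of 7 libraries, and Hoxb6 (1.93-fold), Hoxd9 (1.82-fold) and Hoxb7 (1.70-fold) in 6 of 7. Without the P1117B libraries Hoxb7 had log2 0.46 and was not called (edgeR adjusted p = 0.128). Hoxb5 was 1.62-fold higher in 7 of 7. The 2 intercalated types were alike in HoxB sum, with 726.3 CPM in nuclei with Slc4a1 and 779.8 in nuclei with Slc26a4.

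Against nephron as a whole, stroma had more HoxC and Hoxd10 RNA. Proximal tubule made 64.7% of the nephron UMIs. The HoxC sums of podocytes and parietal epithelium, given below, were near or above that of stroma. Hoxd10 in distal and connecting tubule, also given below, overlapped the stroma range. Of 19 Hox genes tested against nephron, 7 were higher and 4 lower in stroma, where 19.3% and 21.6% of all genes were (40.9% in either direction). The 7 higher genes were all 6 HoxC genes tested and Hoxd10. Hoxb4, Hoxb7, Hoxb8 and Hoxb9 were lower. The HoxC median log2 fold was 1.75 and the HoxB median -0.63, with -0.04 for all genes.

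Hoxc6, a gene of the thoracic region in the embryo, had 103 to 235.6 CPM (median 139.1) in stroma and 19.5 to 47 in nephron. All stroma libraries stood above all nephron libraries, 4.12-fold (log2 2.04, SE 0.15, edgeR adjusted p = 1.94e-11). Hoxc8 had 58.3 to 192.7 CPM (median 109.5), 2.86-fold, also without overlap. Hoxc9, needed for the thoracic pattern of ribs and motor neurons, had 58.3 to 104.3 CPM (median 90.5), 2.36-fold, and its lowest stroma library lay within the nephron range. Hoxc4 was 4.34-fold, Hoxc5 3.89-fold and Hoxc10 2.89-fold higher. Hoxd10 had 33.3 to 74.9 CPM (median 45.3) against 7.43 to 18.9 (median 11.6), 3.78-fold and without overlap.

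Hoxb4 had 195.3 to 374.8 CPM (median 262.9) in stroma, a small shortfall beside nephron (log2 -0.34, edgeR adjusted p = 0.00893) found in 6 of 7 libraries. Hoxb8 fell further, to a mean of 15.9 ± 9.76 CPM against 34.8 ± 10.6 (log2 -1.36), and Hoxb9 to 6.5 ± 7.09 against 17.9 ± 3.25 (log2 -1.48). Hoxb7 had 16 ± 16.8 CPM against 27.1 ± 8.70 (log2 -1.12), with 53.5 CPM in 1-kidney replicate 1 and 6.48 to 13.5 in the others. Hoxd4 (log2 -0.11, SE 0.19) and Hoxd9 (log2 0.39, SE 0.22) were not called. Among fibroblasts and mural cells only 3 Hox genes could be tested and edgeR and DESeq2 called 0 (edgeR called 17.2% of all genes, 10.2% higher in fibroblasts): the log2 folds were 0.01 for Hoxc8, 0.37 for Hoxc6 and 0.03 for Hoxb4, and 0 had an unadjusted p under 0.05.

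Stroma and endothelium, both between the tubules, separated on HoxC. Of 10 Hox genes tested, 5 were higher in stroma and 0 lower with edgeR, and DESeq2 gave the same 5 and 0; 18.5% and 16.3% of all genes were called that way. Hoxc6 had 0 to 10.8 CPM in endothelium and was 18.8-fold higher in stroma (log2 4.23, edgeR adjusted p = 4.33e-17). Hoxc4 was 14.2-fold, Hoxc8 9.82-fold, Hoxd10 8.85-fold and Hoxc9 6.42-fold higher. None of these 5 genes overlapped between the compartments. How many of all genes failed to overlap is not given, here or in the other comparisons of classes or kidney groups. Hoxb4 was at 278.2 ± 73.0 CPM in stroma and 291.3 ± 54.9 in endothelium (log2 -0.12, SE 0.10, edgeR adjusted p = 0.443). Hoxb5, at log2 -0.38, had the smaller value in stroma in 7 of 7 libraries but did not pass (edgeR adjusted p = 0.0656).

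Endothelium against nephron gave mainly low values. Of 18 Hox genes tested, 1 was higher and 9 lower in endothelium, where 25.8% and 29.0% of all genes were. The higher gene was Hoxb5, a factor known from vascular and enteric nerve development, with 38.3 to 100.4 CPM (median 64.8) against 21 to 65.9 (median 55.4), 1.49-fold in 6 of 7 libraries (edgeR adjusted p = 0.000643). The haemoglobin cluster had 38.6 ± 15.3 CPM of Hoxb5. The 5 HoxC genes tested were lower by log2 1.45 to 2.25 in size, and Hoxc6 was lowest with log2 -2.25. Hoxb8 had 12.3 ± 4.20 CPM against 34.8 ± 10.6 (log2 -1.39), Hoxd9 log2 -1.01 and Hoxd10 log2 -1.25. Hoxb7 was barely past the threshold (log2 -0.53, edgeR adjusted p = 0.043) and was called in 2 of 7 fits that left out 1 library, those without 1-kidney replicate 3 or 2-kidney replicate 2; the other 5 gave edgeR adjusted p = 0.0543 to 0.132, and the fit without P1117B 0.104. Without the P1117B libraries Hoxb4 passed too, with log2 -0.39 and edgeR adjusted p = 0.00268, where the fit on 7 libraries gave log2 -0.21 and 0.117. So did Hoxb6, with log2 -0.55 and edgeR adjusted p = 0.00971, where 7 libraries gave log2 -0.19 and 0.33.

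The nephron itself was split by Hox genes from end to end. Podocytes, the filter cells at its start, carried HoxC and little HoxB. Of 13 Hox genes tested against proximal tubule, 6 were higher and 5 lower in podocytes, where 31.5% and 34.4% of all genes were. The higher genes were Hoxc4, Hoxc5, Hoxc6, Hoxc8, Hoxc9 and Hoxd4, and the lower ones Hoxb4, Hoxb5, Hoxb6, Hoxb7 and Hoxb8.

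Hoxc6 had 73 to 278.8 CPM (median 139.8) in podocytes and 5.74 to 15.1 (median 10.6) in proximal tubule, 15.6-fold (edgeR adjusted p = 2.08e-16). Hoxc4 had 65.9 to 156.8 CPM (median 125.7) against 2.62 to 6.67 (median 5.38), 24.6-fold, and Hoxc5 was 22.7-fold higher. Every podocyte library stood above every proximal library for these genes. The step shrank along the cluster, to 3.71-fold for Hoxc8 and 2.84-fold for Hoxc9.

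Hoxb7 was nearly missing from podocytes, with 5 UMIs in all and 1.31 ± 1.25 CPM, where proximal tubule had 18.8 to 40.7 CPM (median 24.5). Hoxb8 had 8 UMIs and 2.49 ± 2.99 CPM against 14.7 to 49.3 (median 39.2). Both fell without overlap, by 3.83 and 3.46 on the log2 scale. Hoxb4 had 52.3 to 155.5 CPM (median 88.4) against 91.6 to 257.2 (median 183.8), lower in 7 of 7 libraries (log2 -0.71). The podocyte HoxB sum of 155.2 ± 54.8 CPM was the lowest of the named classes and below the haemoglobin cluster. Parietal epithelium, which lines the capsule around the same filter, combined 635.4 CPM of HoxC with 555.7 CPM of HoxB.

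From proximal to distal tubule most Hox genes rose. Distal tubule here joins thick ascending limb and distal convoluted tubule. The largest unnamed cluster, with Slc34a1 among its leading genes, is left out of proximal tubule here. It had 35345 HoxB UMIs of 5.06e+07, where proximal tubule had 9780 of 2.91e+07 and distal tubule 12721 of 1.05e+07. Of 21 Hox genes tested, 15 were higher and 1 was lower in distal tubule, where 32.1% and 32.2% of all genes were. Hoxb4 had 495 to 1046 CPM (median 921.2) in distal and 91.6 to 257.2 (median 183.8) in proximal tubule, 4.41-fold without overlap (edgeR adjusted p = 6.41e-11). Hoxb3 was 4.08-fold and Hoxd4 4.38-fold higher. Hoxb5, Hoxb7 and Hoxb8, the middle of the HoxB cluster, were not called, with log2 folds of 0.22, -0.04 and 0.26. Hoxb6 was called at log2 0.38 but had log2 0.10 and edgeR adjusted p = 0.457 without the P1117B libraries, and was not called without either one of them (edgeR adjusted p = 0.0931 and 0.0944).

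Hoxd11, Hoxb9, Hoxd10 and Hoxd3 had the highest folds in distal tubule of the 21 genes tested. Hoxb9 had 48.1 to 69.8 CPM (median 55.9) in distal and 2.27 to 7.88 (median 4.82) in proximal tubule, 13-fold. Hoxd10 had 27.5 to 60.7 CPM (median 32.9) in distal tubule and 2.8 ± 1.32 in proximal tubule, 12.7-fold. Hoxd11 had 112 UMIs in distal and 4 in proximal tubule, or 5.33 to 19.7 CPM (median 11) beside a mean of 0.205 (edgeR adjusted p = 7.27e-09). Hoxd3 had 34.7 to 54.2 CPM in distal and 1.97 to 5.56 in proximal tubule, 8.21-fold, and Hoxd9 was 3.46-fold higher. In HoxC the fold was 4.67 for Hoxc4 and 2.53 for Hoxc9, and Hoxc10 was not called (log2 0.34, SE 0.21). Hoxc11, of the same paralog group, went the other way, with 2.95 ± 1.97 CPM in distal and 6.55 ± 2.26 in proximal tubule (log2 -1.58, edgeR adjusted p = 0.000408). Within proximal tubule, 116 of its 186 Hoxc11 UMIs lay in the cluster led by Il23r.

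HoxC separated the 2 distal segments. Hoxc6 was at 81.3 ± 26.1 CPM in thick ascending limb and 10.9 ± 3.44 in distal convoluted tubule, and Hoxc9 at 101.5 and 16.4 ± 5.75. The HoxC sum was 360.4 ± 106 CPM in thick ascending limb and 55.4 in distal convoluted tubule. The small cluster led by Pappa2, a gene of the macula densa at the end of the ascending limb, had 695 CPM of HoxC, and without it the thick ascending limb had 309.4. HoxC in thin limb was 253.2 CPM. These values have no test of their own.

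**Figure D3:**
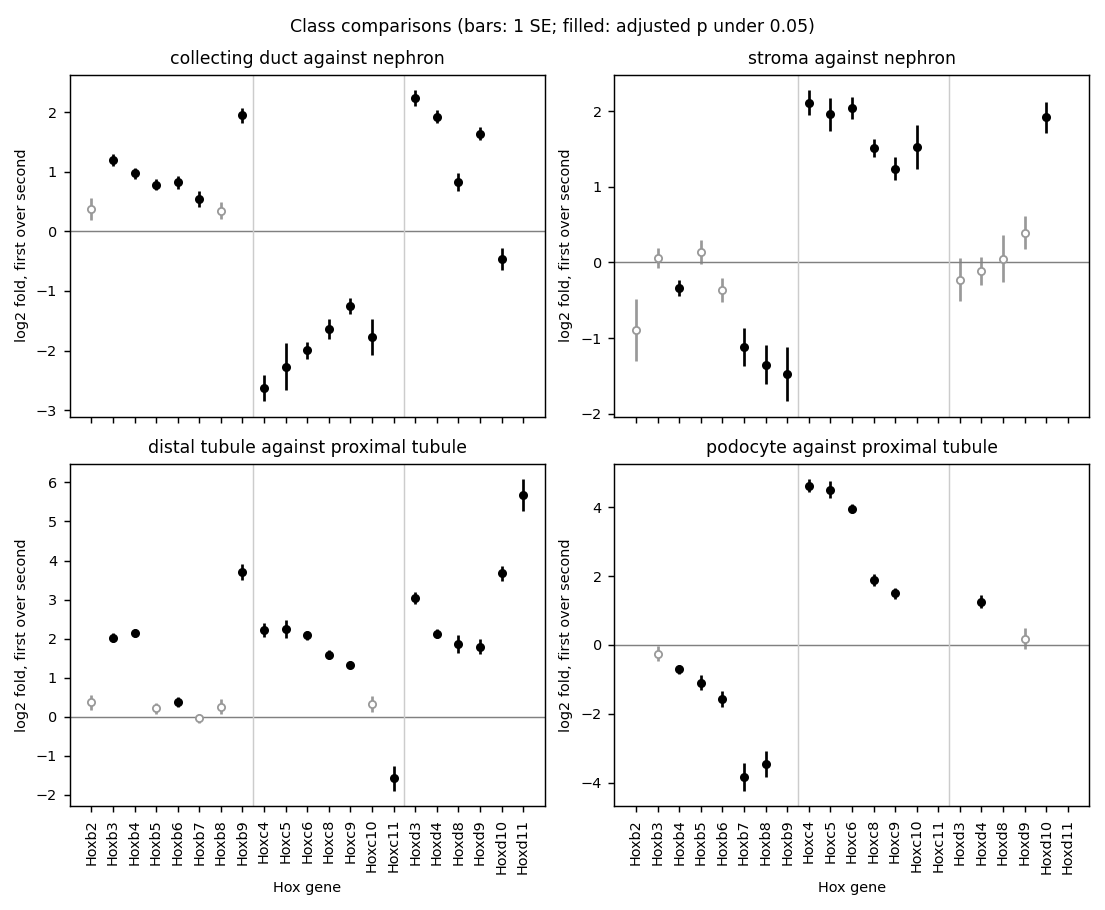
Log2 fold (vertical axis) of each Hox gene (horizontal axis) in 4 comparisons of classes, with bars of 1 SE. Filled points have an edgeR adjusted p under 0.05. HoxC genes lie below 0 in collecting duct against nephron. They lie above 0 in stroma against nephron and in podocyte against proximal tubule.

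The connecting tubule lies between distal convoluted tubule and collecting duct. Against collecting duct, 2 of 13 Hox genes were higher and 5 lower, where 14.8% and 13.2% of all genes were. Hoxd10 had 21.8 to 37.4 CPM (median 35.7) in connecting tubule, 4.33 to 18.6 (median 10.4) in collecting duct and a mean of 6.04 in principal cells. It was 3.38-fold higher in connecting tubule than in collecting duct without overlap (edgeR adjusted p = 1.32e-06). Hoxd9 was higher too (log2 0.45), a call that ended without P1117B (edgeR adjusted p = 0.175) and without 2-kidney replicate 3 (0.0823); against principal cells alone its log2 fold was -0.01. Hoxb5, Hoxb6, Hoxb7, Hoxb8 and Hoxb9 were lower by log2 0.45 to 0.82 in size. Hoxb7 lost its call without any one of 5 libraries (edgeR adjusted p = 0.0604 to 0.11; 1-kidney replicates 2 and 3 were the exceptions), and Hoxb8 without any one of 5 (0.0517 to 0.159; the exceptions were 1-kidney replicate 2 and 2-kidney replicate 4). Without both P1117B libraries Hoxb7 and Hoxb8 had edgeR adjusted p = 0.139 and 0.126. Hoxb4 (log2 0.01, SE 0.09) and Hoxb3 (log2 0.05, SE 0.11) were not called. The connecting tubule against collecting duct count of 7 calls became 4 without 2-kidney replicate 3, and 4 without both P1117B libraries.

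Against distal tubule the connecting tubule had less HoxC. Of 15 Hox genes tested, 3 were higher and 5 lower, where 15.9% and 13.1% of all genes were. Hoxc6 fell by 2.28 on the log2 scale, Hoxc8 by 2.06 and Hoxc9 by 1.60. Against distal convoluted tubule alone, Hoxc9 turned to log2 0.31. Hoxd9 was 2.05-fold, Hoxd3 1.54-fold and Hoxd4 1.39-fold higher in connecting tubule. Hoxb4 was lower by 0.27 and Hoxb9 by 0.40 on the log2 scale; Hoxb9 was called in 4 of 7 fits that left out 1 library, and not without 1-kidney replicate 1 or 3 or 2-kidney replicate 4 (edgeR adjusted p = 0.0641, 0.12 and 0.106) or both P1117B libraries (0.149).

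Which paralogs made up a cluster's RNA also varied by class. In podocytes 72.4% ± 4.25 of HoxC UMIs came from Hoxc4, Hoxc5 and Hoxc6, with 65.9% to 78.3% in single libraries. The share was 56.3% ± 6.24 in fibroblasts, 46% ± 9.51 in parietal epithelium, 41.9% ± 4.39 in thick ascending limb and 26.5% ± 2.15 in proximal tubule. Podocytes stood above fibroblasts, and fibroblasts above thick ascending limb, in 7 of 7 libraries. The haemoglobin cluster had 29.2% ± 11.7.

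For HoxD, Hoxd3 and Hoxd4 gave 72.3% ± 11.7 of UMIs in principal cells, with single libraries at 53.6% to 87%. They gave 52.2% ± 9.92 in connecting tubule, 45.8% ± 11.6 in thick ascending limb and 27.9% ± 7.72 in fibroblasts. Principal cells were above each of these 3 classes in 7 of 7 libraries. Podocytes, with 68.5% ± 11.1, and endothelium, with 65.2% ± 15.1, lay within 1 SD of principal cells. For HoxB, Hoxb2, Hoxb3 and Hoxb4 gave 83.6% ± 1.52 in distal convoluted tubule, 74.5% ± 4.07 in principal cells and 57.5% ± 2.68 in proximal tubule. HoxC sums of 459.7 CPM in podocytes and 360.4 CPM in thick ascending limb thus came with different leading paralogs. These shares are descriptions with no test, and those of HoxC carry the uncertainty of the Hoxc4 to Hoxc6 overlap.

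**Figure D4:**
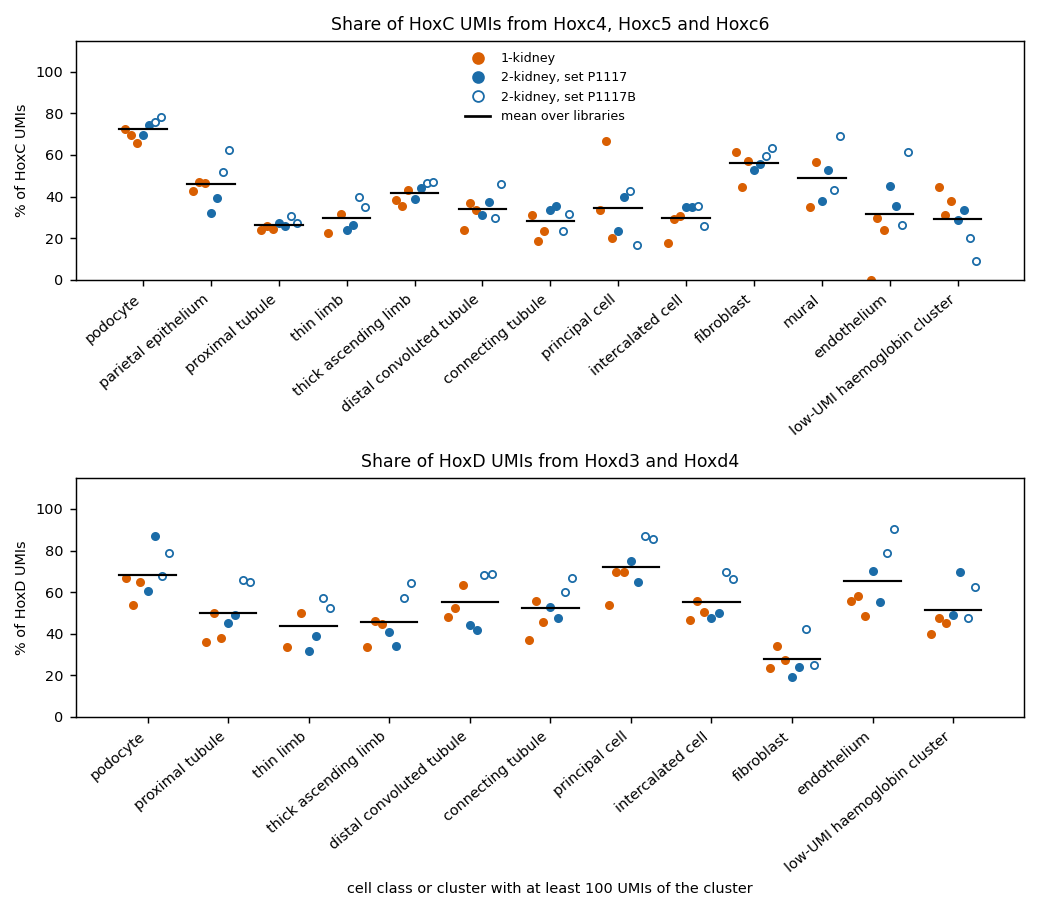
Share in percent of a class's HoxC UMIs that came from Hoxc4, Hoxc5 and Hoxc6 (one panel) and of its HoxD UMIs that came from Hoxd3 and Hoxd4 (the other), by library; points are libraries and bars are means. Podocytes lead for HoxC at a mean of 72.4%, and principal cells for HoxD at 72.3%.

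Genes of 1 cluster tended to follow each other over cell types. Across 13 named classes, the median Pearson r of log2 CPM between pairs was 0.69 within HoxB (28 pairs), 0.88 within HoxC (21 pairs) and 0.57 within HoxD (15 pairs). Between clusters it was 0.51 for HoxB with HoxD, -0.36 for HoxB with HoxC and -0.17 for HoxC with HoxD. The classes share libraries and free RNA, and genes that overlap share reads, so these are descriptions only.

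Of the 4 compartments, stroma had the highest share of nuclei with a HoxC UMI, as it had the highest level. With each nucleus thinned to 1000 UMIs, 39.2% ± 5.31 of stroma nuclei had a HoxC UMI, as did 14.2% ± 3.11 of nephron, 3.14% ± 1.01 of endothelium and 3.13% ± 1.33 of collecting duct nuclei. In the haemoglobin cluster the share was 12.4% ± 4.21, above that of endothelium and collecting duct. Without thinning the 4 shares were 51.7%, 25.7%, 4.86% and 7.88%. For HoxB the thinned shares were 65.7% ± 6.07 in collecting duct, 43.8% ± 5.89 in nephron, 42.3% ± 4.04 in endothelium, 35.4% ± 6.05 in stroma and 32.1% ± 11.5 in the haemoglobin cluster. Without thinning these were 80.2%, 67.4%, 45.7% and 44.4% in the 4 compartments. Principal cells reached 82% ± 7.71 for HoxB and podocytes 14.4% ± 4.45. Shallower nuclei were left out, 1957 from nephron, 546 from collecting duct, 574 from stroma and 1264 from endothelium.

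Hox proteins bind DNA with TALE homeodomain partners of the Pbx, Meis and Pknox families. In stroma against nephron 4 of 9 such genes were higher and 0 lower (19.3% and 21.6% of all genes): Meis1 was 13.7-fold, Meis2 7.29-fold and Pknox2 7.05-fold higher. In endothelium 5 of 9 were higher and 3 lower (25.8% and 29.0% of all genes), among them Meis2 (30.4-fold) and Meis1 (5.44-fold); Meis2 is also in the list used to name endothelium. Podocytes had 6 higher and 2 lower of 9 against proximal tubule (31.5% and 34.4% of all genes), led by Pknox2 (57.2-fold), Meis2 (13.3-fold) and Pbx2 (8.08-fold). In collecting duct 3 were lower (27.7% of all genes), with Pknox2 at log2 -2.07 and Meis1 at log2 -0.45. Stroma and podocytes thus had more of Pknox2, Meis2 and Hoxc4 to Hoxc6 than their reference class, while endothelium had more Meis2 and less HoxC.

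Retinoic acid sets Hox expression limits in the embryo. Of its 12 genes tested against nephron, 6 were higher and 0 lower in stroma (19.3% and 21.6% of all genes), where Aldh1a3 and Aldh1a2, enzymes that make retinoic acid, were 7.05-fold and 3.28-fold and Dhrs3, a retinaldehyde reductase, 3.26-fold higher. In endothelium 5 were higher and 3 lower (25.8% and 29.0% of all genes), led by Cyp26b1, which degrades retinoic acid (49-fold), and the receptors Rarb (5.45-fold) and Rarg (2.90-fold). In collecting duct 4 were higher and 4 lower (24.9% and 27.7% of all genes), with Aldh1a3 11.8-fold higher (log2 3.56, SE 0.58) and Aldh1a2 at log2 -1.57. The collecting duct level of Aldh1a3 was 5.98 ± 4.94 CPM in the 3 1-kidney and 122.7 ± 132.4 CPM in the 4 2-kidney libraries, beside a nephron mean of 4.25. For Aldh1a3, collecting duct against nephron, the log2 fold was 2.67 without 2-kidney replicate 3 and remained called (edgeR adjusted p = 0.00144). In podocytes against proximal tubule 3 of 9 were higher and 4 lower (31.5% and 34.4% of all genes), led by Aldh1a3 (44.2-fold), Rarg (13.4-fold) and Dhrs3 (6.41-fold).

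Genes near the Hox clusters did not all move with them. They came from a fixed list, and their distance to the clusters was not measured. In collecting duct, Snx10 near HoxA was 17-fold higher, Skap1 near HoxB 1.45-fold higher and Hibadh near HoxA at log2 -0.77. Of 7 neighbours tested, 5 were higher and 2 lower (24.9% and 27.7% of all genes). Skap1 turned to log2 -0.27 when clusters were named by the first rule. In distal against proximal tubule, Skap1 was 4.03-fold higher, with Hoxb4 at 4.41-fold and Hoxb7 not called. In podocytes against proximal tubule Skap1 fell by 1.59 on the log2 scale and Lnpk, beside HoxD, was 3.40-fold higher. In principal against intercalated cells 4 of 7 neighbours were higher and 1 lower (25.1% and 24.5% of all genes), with Snx10 25.2-fold and Skap1 3.84-fold higher.

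Polycomb and trithorax genes, which hold Hox clusters silent or active, showed smaller differences. In collecting duct 5 of 26 were higher and 3 lower (24.9% and 27.7% of all genes), led by Wdr5 at 1.35-fold. In stroma 4 of 25 were higher and 1 lower (19.3% and 21.6% of all genes), led by Phc2 at 1.74-fold. In podocytes 8 of 23 were higher and 4 lower (31.5% and 34.4% of all genes), with Kmt2a 2.33-fold higher and Cbx6 at log2 -2.03. Other homeobox and patterning genes of the kidney mostly marked compartments: in collecting duct 8 of 23 were higher and 13 lower, beside the same 24.9% and 27.7%, with Foxi1, the intercalated cell regulator, at log2 5.49, Foxd1 at log2 -4.47 and Wt1 at log2 -4.38. Some of these genes also define the classes, so their differences are partly given by the names.

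Between 1-kidney and 2-kidney libraries no Hox gene was called. This held for all retained nuclei (22 Hox genes tested), nephron (21), collecting duct (16), stroma (12) and endothelium (7), where edgeR called 0.00%, 0.00%, 0.00%, 2.03% and 0.0899% of all genes. In stroma 0.623% of all genes were higher and 1.41% lower in 1-kidney libraries, and in endothelium 0.0514% and 0.0385%. At an unadjusted p under 0.05 the counts were 5, 3, 3, 2 and 1, beside 20.5%, 17.2%, 15%, 18.6% and 11.4% of all genes. DESeq2 called 1, 0, 0, 0 and 0, and gave 5, 4, 3, 1 and 1 at an unadjusted p under 0.05; its call was Hoxb3 over all retained nuclei (log2 -0.52, DESeq2 adjusted p = 0.0402). In simulated counts with this design 60% of 2-fold and 98% of 4-fold changes were recovered over all retained nuclei. Small changes could thus be missed. Of the simulated calls there, 7.6% were false, above the threshold of 0.05. An interaction test of the kidney effect between collecting duct and nephron, or between stroma and nephron, called 0 Hox genes with edgeR (0.00% and 0.429% of all genes were called, with 0.0613% higher and 0.368% lower in the latter). At an unadjusted p under 0.05 these 2 tests gave 6 of 20 and 1 of 21 Hox genes, beside 775 of 11724 and 1055 of 11411 of all genes. In the difference of the 1-kidney effect, stroma against nephron, 7 of all genes were higher and 42 lower, and with RLE in place of TMM factors 17 of 52 calls were higher.

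Hoxb3 was the member with the steadiest direction. Over all retained nuclei it had 52, 65.7 and 68 CPM in the 1-kidney libraries and 102.5, 81.6, 96.2 and 82.7 in the 2-kidney libraries. The 2 groups did not overlap, with a log2 fold of -0.52 (SE 0.14, edgeR adjusted p = 0.171). In collecting duct it had 84.8, 114.1 and 141.6 CPM against 225.9, 212.1, 197.2 and 137.9, a slight overlap, with log2 -0.73. In nephron, stroma and endothelium its log2 fold was -0.36, -0.68 and -0.64. Without the P1117B libraries it was -0.53 over all retained nuclei and -0.94 in collecting duct, again not called. Hoxd4 in collecting duct had 82.2, 87.4 and 101.9 CPM against 134.3, 155.3, 188.5 and 138.8, without overlap (log2 -0.75, SE 0.19, edgeR adjusted p = 0.172). With no filter on low counts Hoxb3 and Hoxd4 were called lower in collecting duct (edgeR adjusted p = 0.0371 and 0.0344). The makeup of the nuclei moved with these values. Over all retained nuclei the sum of 12 proximal tubule markers was 40334 to 45782 CPM in 1-kidney and 21109 to 35956 in 2-kidney libraries, and Hoxb3 was lower in proximal than in distal tubule. Principal cells, where Hoxb3 and Hoxd4 were over 3-fold higher than in intercalated cells, made 40.2%, 27.7% and 48.2% of 1-kidney collecting duct nuclei and 52.8%, 46%, 51.2% and 51.1% of 2-kidney ones. Proximal tubule markers within collecting duct summed to 13944 to 23553 CPM in 1-kidney and 9471 to 15311 in 2-kidney libraries. The part of these shifts in the Hoxb3 and Hoxd4 values was not tested.

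Many other members had low values in the libraries whose names begin P1117B. Over all retained nuclei Hoxb4 had 510.6, 452.1 and 523.4 CPM in the 1-kidney libraries, 459.9 and 473.7 in 2-kidney replicates 1 and 2, and 284.2 and 257.1 in replicates 3 and 4, the P1117B pair. Its log2 fold of 0.46 (edgeR adjusted p = 0.264) became 0.12 without that pair. Hoxc9 likewise had 55.9, 54.3 and 47.8 CPM, then 55.1 and 44.1, then 26.4 and 17.9, and its log2 fold of 0.59 became 0.12. Of 22 Hox genes with at least 100 UMIs, 13 were lower in both P1117B libraries than in the other 5, and 1, Hoxd4, was higher; of all genes, 25.2% were lower and 24.0% higher in that way. Among the 13 were Hoxb4, Hoxb5, Hoxb7, Hoxb8, Hoxc4, Hoxc6, Hoxc8, Hoxc9, Hoxd8, Hoxd9, Hoxd10 and both paralogs Hoxc11 and Hoxd11.

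The pattern was seen in nephron (12 of 21 genes lower, 23.0% of all genes) and collecting duct (6 of 13, 15.5%), less in stroma (2 of 10, 11.4%) and endothelium (2 of 5, 15%). Nephron Hoxb5 shows it, with 64.4, 53 and 62.2 CPM in 1-kidney libraries, 65.9 and 55.4 in 2-kidney replicates 1 and 2, and 22.4 and 21 in replicates 3 and 4. Directions over all retained nuclei were 13 above and 9 below 0 with 7 libraries, and 7 above and 15 below 0 without P1117B. Both P1117B libraries are 2-kidney libraries, so within that set no comparison of the groups can be made; what the name stands for is not given. The 2 replicates that carry it also had the most UMIs, 24706804 and 27069632, and the most nuclei, 5922 and 5952. The median per nucleus was 2154.5 UMIs in 2-kidney replicate 3, below the 2175 of 2-kidney replicate 2. The part of depth or of the number of nuclei was not tested.

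**Figure D5:**
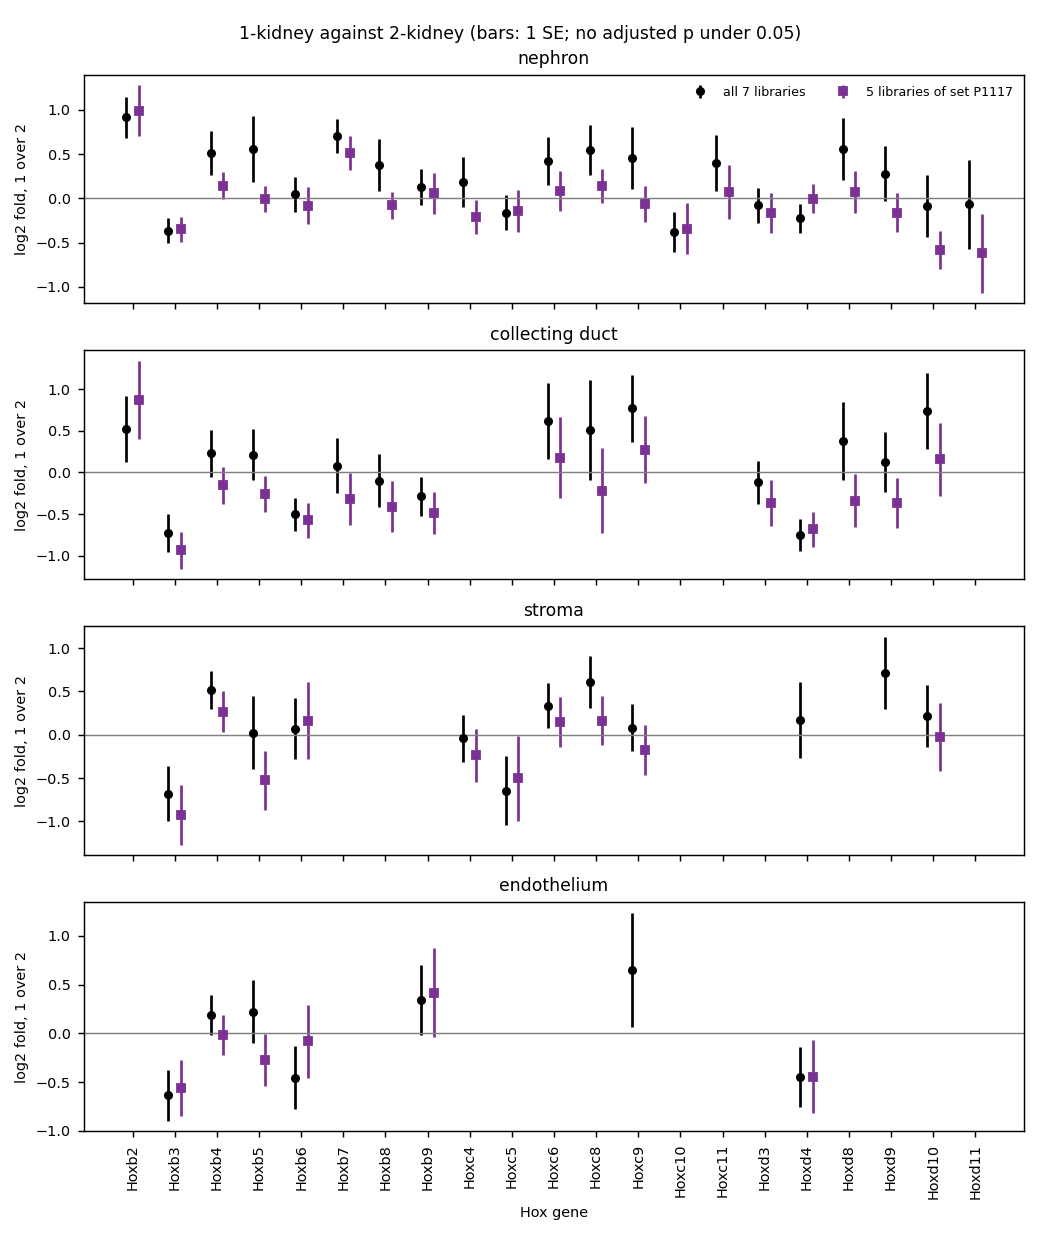
Log2 fold of 1-kidney over 2-kidney libraries for Hox genes in nephron, collecting duct, stroma and endothelium, with all 7 libraries and with the 5 libraries named P1117. Many points move toward or past 0 when the P1117B libraries are left out; Hoxb3 stays below 0 in each compartment.

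Hox partners did differ between the groups in stroma. Of 7 TALE genes tested, 7 had a fold below 0 in 1-kidney stroma (median log2 -0.88, 0.01 for all genes) and 3 were called, all lower, where 1.41% of all genes were lower. Meis1 had 85.7, 130.1 and 143.2 CPM in 1-kidney and 360.7, 277.7, 347.7 and 301.2 in 2-kidney libraries. Meis2 had 503.3, 585.4 and 585.5 CPM against 1179, 951.5, 1245 and 1195, and Pknox2 had 171.3, 149.1 and 202.2 against 344.8, 388.7, 314.3 and 608.8. No group overlapped, with log2 folds of -1.33 (edgeR adjusted p = 0.00824), -0.99 (0.0157) and -1.23 (0.0199). Rarb, a retinoic acid receptor, had 117.8, 138.2 and 168.5 CPM against 301.3, 292.5, 314.3 and 259.1 (log2 -0.97, edgeR adjusted p = 0.0244). In fits that left out 1 library, Meis1 was called in 6 of 7, Pknox2 in 5, Meis2 in 4 and Rarb in 4. Without 1-kidney replicate 2 none of the 4 was called (edgeR adjusted p = 0.0556, 0.136, 0.0866 and 0.147). Pknox2 also lost its call without 1-kidney replicate 1, and Meis2 and Rarb without 1-kidney replicate 1 or 3. Without P1117B all 4 were called, with log2 folds of -1.35, -1.07, -0.92 and -1.03 for Meis1, Pknox2, Meis2 and Rarb.

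Marker sums moved with the groups in the same stroma nuclei. The sum of 8 fibroblast markers was 2519 to 2570 CPM in 1-kidney and 3862 to 4492 in 2-kidney libraries. The sum of 12 proximal tubule markers was 23550 to 29595 against 10414 to 19143, and that of 10 endothelium markers 1017 to 1233 against 1848 to 2039. Meis2 is itself 1 of those endothelium markers, with 503.3 to 585.5 CPM in 1-kidney and 951.5 to 1245 in 2-kidney stroma. The endothelium sum is therefore not separate from the Meis2 difference. The mural marker sum overlapped, at 1099 to 1574 against 1138 to 1729. The part of these shifts in the Meis1, Meis2, Pknox2 and Rarb differences was not tested. Hoxc6, the stroma HoxC gene given above, had 235.6, 103 and 176.9 CPM in 1-kidney and 139.1, 144.4, 121.4 and 110.1 in 2-kidney stroma, and the groups overlapped.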

How the data were processed

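Nuclei were isolated with a 10x Genomics kit and carried through its 3′ v3.1 chemistry, and the 7 libraries were pooled for sequencing, per the labels' protocols. The authors deposited 1 matrix of raw UMI counts per library, with Cell Ranger 7.0 named in the submitters' processing notes. The build behind the counts and the treatment of intron reads are not given in the sources used.

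From these counts, barcodes with fewer than 200 genes or more than 5% mitochondrial UMIs were removed. The highest Scrublet doublet scores were removed too, at 0.8% per 1000 barcodes, because the automatic cutoff marked at most 4 nuclei a library: 37048 barcodes became 32886, and 31227 after 1659 predicted doublets. Nuclei were clustered with scanpy 1.11.5 (2000 variable genes without Hox genes, 30 components, 20 neighbours, Leiden resolution 1). A cluster was named when 3 markers of a class were at least 2-fold and the leading one at least 3-fold above the mean of the other clusters. The class with the highest mean log2 fold of its markers was taken. The first rule measured folds over all other nuclei, asked for 4-fold and took the class with most such markers. It named no cluster proximal or connecting tubule. The reference, the choice of class and the cutoff were changed after the data were seen. The first rule is kept as an alternative. UMIs were summed per library and class with at least 20 nuclei.

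Sums were tested with edgeR 4.0.16 in R 4.3.3 (quasi-likelihood test, TMM factors, its filter on low counts, Benjamini-Hochberg over all genes tested, threshold 0.05). Library was a block between classes, since classes of 1 library share an animal. Between 1-kidney and 2-kidney libraries no block was used: replicate numbers follow accession order and pair nothing. DESeq2 1.42.0, other normalization, filters, doublets, resolution and leaving out libraries were alternatives. The edgeR script was tested on simulated data. For collecting duct against nephron, with 10582 genes, 91.9% of 2-fold and 100% of 4-fold changes were recovered. For 1-kidney against 2-kidney in stroma, with 6532 genes, these were 69% and 99%. False calls made 4.55% and 4% of the calls in these comparisons. Between kidney groups they made 7.6% over all retained nuclei and 7.47% in nephron, above the threshold of 0.05.

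Members and gene lists were chosen with earlier results of these data known. Values are given for the 12 members with most UMIs and for others by range and count or where they were called; from each list up to 3 called genes with the largest fold were named for the comparisons shown, and some list genes are not reported here. Hoxd3, Hoxd10, Hoxd11, Hoxc4 and Hoxc11 were also given values after these were seen. Depth per library was 5581726 to 27069632 UMIs; intervals and limits cover counting error only.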

Additional observations from a re-analysis of the deposited data

Results flagged for a closer look

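In stroma, Hoxb8 of 2-kidney replicate 3 was at 19.05 CPM, far from the other 2-kidney libraries at 7.405 to 8.691. It was the 1 such value in 75 groups checked, where chance gives about 1 in 20 groups. The kidney effect on Pknox2 differed between stroma and nephron (log2 difference -1.247, edgeR adjusted p = 0.00571), as did that on Meis2 (-0.919, edgeR adjusted p = 0.0139). Neither was called without 1-kidney replicate 2 (edgeR adjusted p = 0.333 and 0.424), nor Meis2 without 2-kidney replicate 2 or 4 (0.0944 and 0.0573). Hox RNA was also found in an unnamed cluster of 158 nuclei led by uroplakin genes, which no comparison used: Hoxb4 was at 473.1 CPM (244.5 to 752.6 over the 4 libraries with 20 nuclei) and Hoxb3 at 220.8 CPM (152.3 to 331.7). Its HoxB sum was 947 CPM and its HoxC sum 28 CPM.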

How the results depend on the processing

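Counts of Hox genes called kept within 1.5 times of their value under most alternatives. With no filter on low counts, endothelium against nephron gave 16 in place of 10, stroma against endothelium 12 in place of 5, connecting tubule against distal tubule 13 in place of 8, principal cell against intercalated cell 16 in place of 10, and 1-kidney against 2-kidney in collecting duct 2 in place of 0. Naming clusters by the first rule gave 16 for endothelium against nephron. With DESeq2, connecting tubule against collecting duct gave 4 in place of 7, and 1-kidney against 2-kidney over all retained nuclei 1 in place of 0. With no replicate block, connecting tubule against collecting duct gave 4 and connecting tubule against distal tubule 5. Without the P1117B libraries connecting tubule against collecting duct gave 4. With the high-UMI unnamed cluster added to proximal tubule, podocyte against proximal tubule gave 17 in place of 11. The cause of these shifts was not tested.

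Leaving out 1 library at a time gave 15 to 18 calls for collecting duct against nephron, 11 to 13 for stroma against nephron, 9 to 11 for endothelium against nephron, 5 to 6 for stroma against endothelium, 4 to 7 for connecting tubule against collecting duct, 7 to 9 for connecting tubule against distal tubule, 15 to 17 for distal against proximal tubule, 11 to 12 for podocyte against proximal tubule, and 10 to 11 for principal against intercalated cells. Over these fits 639 of 664 single Hox calls held and 25 lost significance; over the other alternatives 980 of 1026 held, 44 lost significance and 2 changed sign: Hoxd9, connecting tubule against collecting duct, to -0.014 with principal cells alone, and Hoxc9, connecting tubule against distal tubule, to 0.31 with distal convoluted tubule alone. Skap1, collecting duct against nephron, turned to -0.27 under the first naming rule. The principal-only and convoluted-only fits, the first rule and the high-UMI cluster were chosen after seeing the data. The first rule could not be run for the 4 comparisons that need proximal or connecting tubule. Another scaling (RLE) moved the median of all genes by under 0.1 in each comparison.

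The share of nuclei with a HoxB UMI was 29.4% in nephron, 45.4% in collecting duct, 18.3% in stroma and 24.5% in endothelium at 500 UMIs, and 67.4%, 80.2% and 44.4% in nephron, collecting duct and stroma with no thinning. The share of nuclei with a HoxC UMI was 9.04% in nephron and 25.7% in stroma at 500 UMIs, and 25.7% in nephron, 7.88% in collecting duct, 51.7% in stroma and 4.86% in endothelium with no thinning. No paired analysis was possible between 1-kidney and 2-kidney libraries because the labels give no number that the groups share.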
